A study of Mus musculus with 9 samples.

Results

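A set of 46 genes was strongly reduced, in part almost to 0, in all 6 Gpd1 knockout (KO) colonies of mouse brain tumor stem cells, among 21899 genes in the table. A gene entered the set when its normalized read count was at least 50 in each of the 3 control libraries and at most 20% of the control mean in each of the 6 KO libraries. Both thresholds were met by 60 genes, and 14 of them were left out by name because their symbols belong to families such as annexins, collagens and S100 proteins or to a short list of single genes. Of the 46 genes, 43 were annotated as protein-coding and 3 as non-coding. The most completely lost were Itpripl2, Fam19a2 and Ociad2.

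Brain tumor stem cells (BTSC) are brain tumor cells grown as a culture that keeps features of neural stem cells. The KO cells carried CRISPR-Cas9 edits in Gpd1, made with either of 2 guides, and formed the groups sgRNA1 KO and sgRNA2 KO. The third group was BTSC without a knockout, the control. Each group had 3 libraries of poly(A) RNA. Per the labels' protocols, the KO cells had been transfected, selected with puromycin and grown from colonies that each began as a single cell, so each KO library is a clone. For the control cells, transfection, selection and picking of colonies are not mentioned in the labels. Loss of Gpd1 and these handling steps therefore cannot be told apart. No age, strain or driver mutation was given in the labels.

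Gpd1 encodes the cytoplasmic glycerol-3-phosphate dehydrogenase, which links glycolysis to glycerolipid synthesis and to the balance of NAD+ and NADH. The genes of the set have many roles: secreted signals, receptors, matrix enzymes, regulators of G protein signalling, proteins of vesicles and of the cytoskeleton. Several are known from mesenchymal, vascular or neuronal cells.

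The start regions of 5 genes are shown because they cover the 3 most completely lost genes and the neighbouring pair Rgs5 and Rgs4, and because CpG pairs, the sites at which mammalian DNA can be methylated, differ widely in number between start sites. Methylation was not measured in these libraries. Each is 300 bases from RefSeq on GRCm38.p6, 5′ to 3′ on the gene's strand, with CpG pairs in capitals, and ends a short way past the start of transcription. Itpripl2 lies at chr7:118491926-118492225 on the minus strand, Fam19a2 (RefSeq symbol Tafa2) at chr10:123263826-123264125 on the plus strand, and Ociad2 at chr5:73338898-73339197 on the minus strand. Rgs5 lies at chr1:169655251-169655550 on the plus strand and Rgs4 at chr1:169747593-169747892 on the minus strand.
Itpripl2: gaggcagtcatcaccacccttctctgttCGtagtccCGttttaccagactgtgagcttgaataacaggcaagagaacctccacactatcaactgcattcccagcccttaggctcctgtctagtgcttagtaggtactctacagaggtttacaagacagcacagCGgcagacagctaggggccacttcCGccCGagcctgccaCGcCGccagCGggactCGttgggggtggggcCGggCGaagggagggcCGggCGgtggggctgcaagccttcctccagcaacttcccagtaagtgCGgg
Fam19a2: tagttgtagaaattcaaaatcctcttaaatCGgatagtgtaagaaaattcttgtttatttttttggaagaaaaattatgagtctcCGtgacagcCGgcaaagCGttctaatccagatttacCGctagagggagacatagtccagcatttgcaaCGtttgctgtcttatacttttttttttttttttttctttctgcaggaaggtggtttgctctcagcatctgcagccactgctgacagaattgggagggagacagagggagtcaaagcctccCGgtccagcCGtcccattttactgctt
Ociad2: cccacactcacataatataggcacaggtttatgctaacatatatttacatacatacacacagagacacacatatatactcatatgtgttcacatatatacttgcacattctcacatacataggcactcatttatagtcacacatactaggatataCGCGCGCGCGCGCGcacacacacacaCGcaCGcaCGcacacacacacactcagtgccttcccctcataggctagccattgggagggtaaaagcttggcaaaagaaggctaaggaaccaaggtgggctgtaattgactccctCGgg
Rgs5: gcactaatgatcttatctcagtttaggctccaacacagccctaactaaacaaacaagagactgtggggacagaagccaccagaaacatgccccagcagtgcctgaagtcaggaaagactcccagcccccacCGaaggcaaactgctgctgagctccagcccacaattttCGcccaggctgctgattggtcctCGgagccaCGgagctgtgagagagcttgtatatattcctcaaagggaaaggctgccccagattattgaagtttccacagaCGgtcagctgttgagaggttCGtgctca
Rgs4: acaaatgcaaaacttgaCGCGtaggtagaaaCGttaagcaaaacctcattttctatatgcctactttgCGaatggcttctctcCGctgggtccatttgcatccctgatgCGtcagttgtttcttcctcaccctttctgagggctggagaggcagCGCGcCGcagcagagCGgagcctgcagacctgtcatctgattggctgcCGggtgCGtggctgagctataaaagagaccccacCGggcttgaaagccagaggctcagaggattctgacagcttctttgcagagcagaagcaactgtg
The stretches held 14 CpG pairs for Itpripl2, 8 for Fam19a2, 11 for Ociad2, 6 for Rgs5 and 13 for Rgs4. The search was for the letters CG, which read the same on both strands. Over the promoters of 10570 protein-coding genes tested, 26.0% had fewer CpG pairs than Itpripl2, 13.1% fewer than Fam19a2, 18.9% fewer than Ociad2, 9.05% fewer than Rgs5 and 23.4% fewer than Rgs4. In Ociad2, 7 of the pairs form an unbroken CG run at the 5′ end of a longer CA repeat, and the RefSeq start lies inside the longer GENCODE span of the gene. A start region was matched for 31 of the 46 genes, under 80%, so no summary over the set is given.

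Gpd1 itself was measured first, in every library. It had 3299, 1347 and 21351 normalized read counts in sgRNA1 KO, 10812, 10812 and 6945 in sgRNA2 KO, and 25106, 26566 and 25836 in the controls. All 6 KO libraries lay below the controls, but sgRNA1 KO replicate 3 came close to them, and the mean difference missed the threshold (log2 KO minus control -1.99, adjusted p = 0.0516, limma). An edit can remove the protein and leave the RNA, and the labels give Western blots and DNA sequencing as the check of the knockouts. The orders of the colonies by Gpd1 RNA and by the 46 genes were alike in part but not the same. The colony highest in Gpd1, sgRNA1 KO replicate 3, also had the highest KO sum over the set (8189), of which Akap12 alone gave 3271. By contrast, sgRNA2 KO replicate 2, with 10812 for Gpd1, had the lowest sum (3857). By the median remaining level per gene, sgRNA2 KO replicate 1 was highest at 12.1%, against 10.5% in sgRNA1 KO replicate 3. A link of Gpd1 RNA to the depth of the loss was not tested.

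The totals of normalized read counts ran from 39781901 to 42975283 per library. These values were already scaled by library, so the totals do not show how deeply each was sequenced. Counting error weighs most on genes with few counts. Over the 15827 genes that averaged 10 or more, limma called 39.3% of genes in KO against control, and the median difference over all of them was -0.01 on the log2 scale. The stem cell markers Sox2 (15184 in KO, 7704 in controls, means), Olig2 (33192 and 37585) and Fabp7 (96788 and 98281) had high counts, and so had Nes, though every KO library of Nes (8451 to 24740) lay below every control (37297 to 46053). Prom1 was near 0 in both groups (3 to 31 in KO, 7 to 15 in controls). The KO libraries sgRNA1 KO replicate 3 and sgRNA2 KO replicate 1 stood nearest to the controls. With both left out, the same thresholds took in 82 genes, the 46 among them. In bulk RNA, fewer cells that express a gene and less RNA per cell cannot be told apart. Replicates within a group are separate libraries, but nothing says that the controls came from separate cultures, and p-values measure the spread between these samples only.

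The level that remained in KO cells ran from 1.53% of the control mean for Itpripl2 to 16.7% for Cxcl14, with a median of 8.33%. As folds, control over KO ran from 6.0 to 65.2. In 11 genes the KO mean was under 5% of the control mean, in 21 it was 5 to 10%, and in 14 it was 10% or more. Silencing was thus near complete in some genes and partial in others: 15 genes kept a KO mean of at least 50 normalized read counts, while 12 had a KO mean under 10. The genes were chosen by these KO and control values, which are given as a description. All 46 passed the filter on low values. The limma fit called 20.2% of all genes lower in KO, and in 23.8% of all genes every KO library lay below every control. All 46 had both properties, which the choice of the genes fixes.

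**Figure D1:**
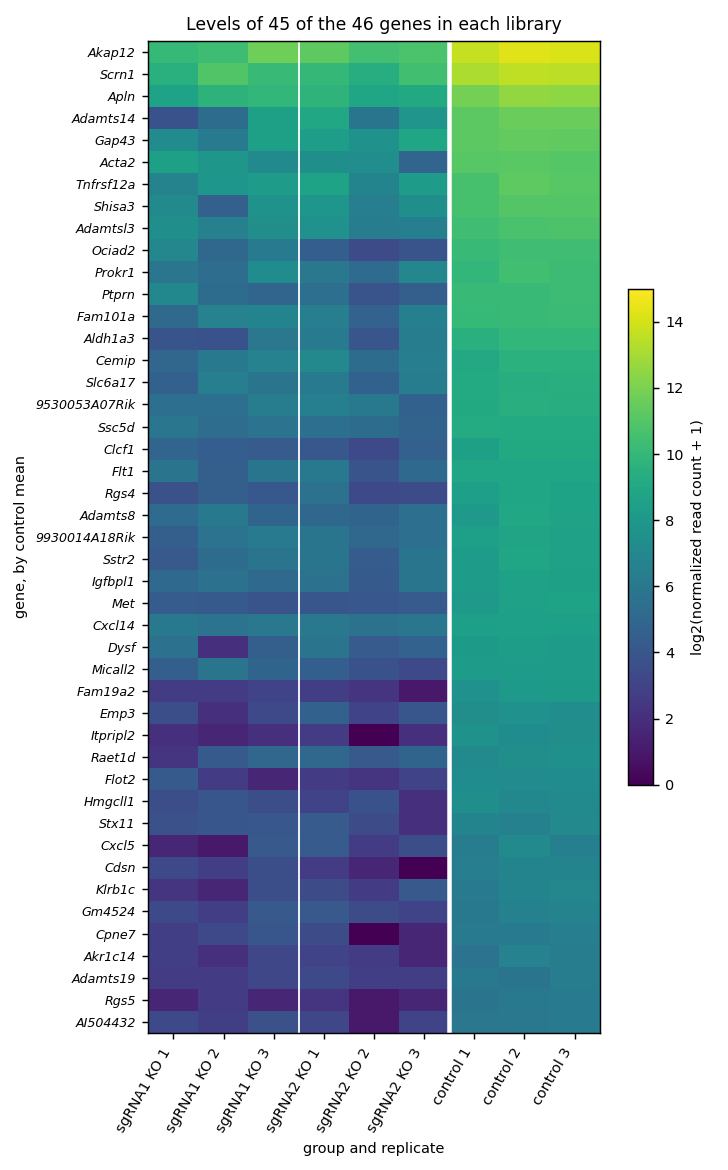
Normalized read counts as log2(value + 1) (colour) for 45 of the 46 genes (rows, ordered by control mean) in the 9 libraries (columns, KO left of the thick white line). The 3 control columns are lighter than the 6 KO columns in every row, and the KO columns of the top rows, such as Akap12 and Scrn1, stay well above 0.

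Itpripl2 encodes a little-studied membrane protein named for its likeness to a protein that binds the inositol trisphosphate receptor. It had 3, 2 and 3 normalized read counts in sgRNA1 KO, 5, 0 and 3 in sgRNA2 KO, and 199, 156 and 167 in the controls. No KO library passed 2.87% of the control mean, and in the whole set only Fam19a2 had a lower ceiling, at 2.79%. Ociad2, whose product belongs to the OCIA domain proteins of endosomes and mitochondria, had 122, 31 and 73 in sgRNA1 KO, 21, 10 and 14 in sgRNA2 KO, and 1110, 1340 and 1368 in the controls. Its KO mean was 45.2 ± 44.0 (SD, n = 6) against 1273 ± 142 in controls (SD, n = 3). The lowest sgRNA1 KO value of Ociad2 exceeded its highest sgRNA2 KO value.

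The 6 secreted signals had a control mean between 104 and 5073. Fam19a2, a small chemokine-like protein of the brain, had 5, 5 and 7 in the sgRNA1 KO colonies and 6, 4 and 1 in the sgRNA2 KO colonies, against 192, 272 and 289 in the controls. Clcf1, a cytokine of the interleukin 6 family, stood at 29, 21 and 19 with sgRNA1, at 16, 9 and 23 with sgRNA2, and at 370, 552 and 548 in control cells. Both were low in every colony, at 1.86% and 3.98% of the control mean. Apln, the peptide ligand apelin, had the third highest control count of the set, with 409, 828 and 959 in sgRNA1 KO, 880, 449 and 559 in sgRNA2 KO, and 3688, 6042 and 5490 in the controls. Apelin RNA thus stayed well above 0 in KO cells, at 681 ± 237 (SD, n = 6), against 5073 ± 1231 in controls (SD, n = 3). The chemokine Cxcl14 was the least reduced gene of the set, with 67, 51 and 62 in sgRNA1 KO, 64, 47 and 59 in sgRNA2 KO, and 346, 351 and 353 in the controls. Its colonies also agreed most closely, with an SD of 7.79 around a KO mean of 58.3. The chemokine Cxcl5 ran from 1 to 19 in KO and from 78 to 146 in controls, and Igfbpl1, a relative of the insulin-like growth factor binding proteins, from 18 to 55 in KO and from 317 to 386 in controls.

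The 10 receptors and surface proteins included 2 receptor tyrosine kinases. Met, the receptor of hepatocyte growth factor, had 20, 18 and 14 in sgRNA1 KO, 15, 16 and 19 in sgRNA2 KO, and 276, 378 and 411 in the controls. The 6 colonies of Met differed little, at 17.0 ± 2.37 (SD, n = 6), against 355 ± 70.4 in controls (SD, n = 3). Flt1, a receptor of vascular endothelial growth factors, had 53, 22 and 55 in the sgRNA1 KO colonies and 66, 14 and 34 in the sgRNA2 KO colonies, against 449, 456 and 445 in the controls. Tnfrsf12a, the receptor of the cytokine TWEAK, stood at 103, 238 and 313 with sgRNA1, at 410, 110 and 310 with sgRNA2, and at 1621, 2497 and 2212 in control cells. It was at the edge of the set, since sgRNA2 KO replicate 1 reached 19.4% of the control mean. Shisa3, whose Xenopus relative holds Wnt and Fgf receptors back in the endoplasmic reticulum, had 146, 23 and 202 in sgRNA1 KO, 230, 84 and 176 in sgRNA2 KO, and 1610, 2004 and 1998 in the controls. Prokr1, a prokineticin receptor, ran from 37 to 153 in KO and from 967 to 1398 in controls. Sstr2, a somatostatin receptor, ran from 17 to 56 in KO and from 300 to 458 in controls. The others were Ssc5d, a soluble scavenger receptor (26 to 58 in KO, 569 to 590 in controls), Emp3, a tetraspan membrane protein (3 to 24 and 163 to 194), and 2 genes of natural killer cell recognition. Of these, Klrb1c ran from 2 to 17 in KO and from 68 to 121 in controls. Raet1d, a ligand of the NKG2D receptor, had 4, 18 and 30 in the sgRNA1 KO colonies and 32, 17 and 28 in the sgRNA2 KO colonies, against 136, 172 and 183 in the controls, and reached 19.6% in its highest colony, the closest to the limit.

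Among 5 matrix enzymes and relatives, Adamts14, a protease that trims procollagens, differed most between colonies. It stood at 13, 39 and 372 with sgRNA1, at 484, 57 and 227 with sgRNA2, and at 2424, 3085 and 2983 in control cells. Its KO SD of 196 was nearly as large as its KO mean of 199 (n = 6), and its 2 highest colonies were those nearest to the controls over all genes. Adamtsl3, which is related to these proteases but lacks the catalytic part, had 179, 93 and 170 in sgRNA1 KO, 194, 78 and 88 in sgRNA2 KO, and 1358, 1687 and 1806 in the controls. Cemip, which takes part in breaking down hyaluronan, had 30, 67 and 98 in the sgRNA1 KO colonies and 133, 39 and 84 in the sgRNA2 KO colonies, against 539, 773 and 750 in the controls. The proteases Adamts8 (27 to 65 in KO, 280 to 499 in controls) and Adamts19 (5 to 9 in KO, 53 to 81 in controls) made up the rest of this group.

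The 4 signalling scaffolds and regulators of G proteins held the gene with the highest control count of the set and a pair of neighbours. Akap12, a scaffold that binds protein kinases A and C, stood at 1064, 1299 and 3271 with sgRNA1, at 2491, 1459 and 1741 with sgRNA2, and at 12919, 19910 and 18071 in control cells. At least 1064 counts thus remained in every colony, and the KO mean was 11.1% of the control mean. Gap43, a protein of nerve growth cones, had 147, 69 and 363 in sgRNA1 KO, 319, 210 and 473 in sgRNA2 KO, and 2397, 2660 and 2550 in the controls. Rgs4, which speeds the switching off of G protein alpha subunits, had 12, 22 and 16 in the sgRNA1 KO colonies and 50, 9 and 10 in the sgRNA2 KO colonies, against 358, 443 and 415 in the controls. Its relative Rgs5, also a marker of pericytes, stood at 2, 5 and 2 with sgRNA1, at 4, 1 and 2 with sgRNA2, and at 54, 66 and 75 in control cells. Rgs5 was barely above the control minimum, while its KO mean was 4.10% of the control mean, against 4.89% for Rgs4. The genes lie 45664 bases apart on chromosome 1 (Rgs5 at chr1:169655501-169695813, Rgs4 at chr1:169741477-169747642, GENCODE M21), and were the closest pair in the set. The next closest pair, AI504432 and Slc6a17 on chromosome 3, was 413196 bases apart.

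Of 7 membrane, vesicle and secretory proteins, Scrn1, a cytosolic protein linked to exocytosis in mast cells, had the second highest control count of the set. It had 726, 1950 and 1105 in sgRNA1 KO, 1019, 660 and 1381 in sgRNA2 KO, and 8972, 12076 and 11673 in the controls. Ptprn, a protein of dense-core secretory vesicles, had 128, 39 and 29 in the sgRNA1 KO colonies and 43, 14 and 22 in the sgRNA2 KO colonies, against 1162, 1108 and 1228 in the controls. Flot2, a scaffold of membrane rafts, stood at 18, 5 and 2 with sgRNA1, at 5, 4 and 7 with sgRNA2, and at 157, 148 and 157 in control cells. In both Ptprn and Flot2 the highest colony was sgRNA1 KO replicate 1, well above the other 5. Slc6a17, a transporter of neutral amino acids into synaptic vesicles, ran from 24 to 84 in KO and from 572 to 665 in controls. Dysf, a protein of membrane repair, ran from 3 to 53 in KO and from 291 to 330 in controls, and Stx11, a syntaxin of secretory granules, from 3 to 19 in KO and from 95 to 130 in controls. Cpne7, a calcium-dependent membrane-binding copine, was at 0 in sgRNA2 KO replicate 2, reached 15 in sgRNA1 KO replicate 3, and ran from 74 to 85 in controls. The set held 3 genes with a 0 in some KO library: Itpripl2, Cpne7 and Cdsn.

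Of the 4 cytoskeletal genes, Acta2, the actin of smooth muscle, had 363, 241 and 138 in sgRNA1 KO, 175, 162 and 29 in sgRNA2 KO, and 2202, 2290 and 2117 in the controls. Fam101a, a filamin-binding protein, had 35, 99 and 109 in the sgRNA1 KO colonies and 86, 25 and 89 in the sgRNA2 KO colonies, against 1063, 1135 and 1178 in the controls. Fam101a stayed under 10% in every colony, whereas Acta2 reached 16.5% in its highest. Micall2, a partner of the small GTPase Rab13, ran from 9 to 53 in KO and from 298 to 318 in controls.

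The metabolic enzymes were 3. Aldh1a3, which makes retinoic acid from retinal and marks mesenchymal glioma stem cells, had 14, 13 and 60 in sgRNA1 KO, 72, 15 and 82 in sgRNA2 KO, and 744, 989 and 967 in the controls. Hmgcll1, a relative of the lyase that makes ketone bodies, ran from 3 to 15 in KO and from 126 to 176 in controls, and Akr1c14, a hydroxysteroid dehydrogenase, from 2 to 8 in KO and from 52 to 98 in controls. Cdsn, the skin adhesion protein corneodesmosin, ran from 0 to 11 in KO and from 85 to 108 in controls, and the coding gene 9530053A07Rik from 24 to 87 in KO and from 550 to 664 in controls. The 3 non-coding transcripts were 9930014A18Rik (22 to 70 in KO, 356 to 427 in controls), Gm4524 (6 to 17 and 66 to 105) and AI504432 (1 to 12 and 60 to 69). Gm4524 is antisense to P3h2, which had 70, 41 and 177 in sgRNA1 KO, 247, 83 and 90 in sgRNA2 KO, and 691, 953 and 921 in the controls. 9930014A18Rik overlaps Fam84b on the other strand, and Fam84b had 125, 149 and 205 in the sgRNA1 KO colonies and 162, 144 and 147 in the sgRNA2 KO colonies, against 891, 996 and 971 in the controls. Whether the authors counted reads by strand is not given in the sources used here, so reads of such partners cannot be told apart. In all, exons of 8 genes of the set overlap exons of a gene on the other strand, and exons of 5, including Raet1d with Raet1e, those of a gene on the same strand.

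Just outside the limit on KO values stood Rab7b, Fam84b and Lama3, whose highest colonies were at 21.4%, 21.5% and 21.6% of the control mean. Just inside it stood Raet1d, Tnfrsf12a and Cemip at 19.6%, 19.4% and 19.4%. At the control minimum of 50, Akr1c14, Adamts19 and Rgs5 were inside with lowest control values of 52, 53 and 54, and Tnfsf18, Pde1a and Cd80 were outside with 46, 43 and 38. Tnfsf18 and Cd80 had 4 to 12 and 0 to 7 in KO, values like those of the genes inside.

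Each colony had its own larger set of lost genes, and 60 genes were lost in all 6. Among the 12245 genes with at least 50 in every control, the sgRNA1 KO colonies had 491, 499 and 176 at or under 20% of the control mean, and the sgRNA2 KO colonies 135, 342 and 209. By the number of colonies in which a gene was lost, 287 genes were lost in 1, 187 in 2, 146 in 3, 57 in 4, 33 in 5 and 60 in all 6. The counts fell with each added colony up to 5 and were higher again at 6. The mirror image of the rule, at least 50 in every KO library and at most 20% of the KO mean in every control, was met by 116 genes.

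**Figure D2:**
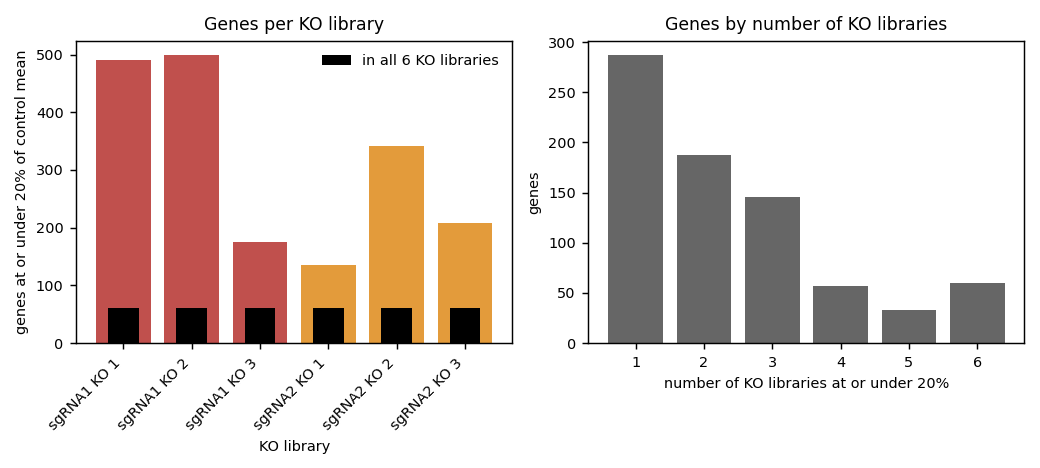
Left, genes at or under 20% of the control mean in each KO library (coloured bars) and those at or under it in all 6 (black bars, 60 in each), among 12245 genes with at least 50 in every control. Right, genes by the number of KO libraries in which they were at or under 20%, with 33 genes at 5 libraries and 60 at 6.

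Colonies differed in how deep the loss of the 46 genes was. The median remaining level was 7.10%, 6.85% and 10.5% of the control mean in sgRNA1 KO replicates 1, 2 and 3, and 12.1%, 4.81% and 7.95% in sgRNA2 KO replicates 1, 2 and 3. Summed over the set, the normalized read counts were 4156, 5743 and 8189 in sgRNA1 KO, 3857 to 7496 in sgRNA2 KO, and 50022, 67650 and 64092 in the controls. By median the shallowest loss was in sgRNA2 KO replicate 1, which also held the highest KO value, alone or tied, for 17 genes and the lowest for none. The deepest, by median and by sum, was in sgRNA2 KO replicate 2, which held the lowest KO value, alone or tied, for 17 genes and the highest for none. The medians of the 3 sgRNA1 KO colonies all lay within the range of the sgRNA2 KO medians. By sum, to which Akap12 and Scrn1 added most, sgRNA1 KO replicate 3 lay above the sgRNA2 KO range. Both shallow colonies, sgRNA2 KO replicate 1 and sgRNA1 KO replicate 3, were also those nearest to the controls over all genes, and the part of this likeness in the values was not tested.

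**Figure D3:**
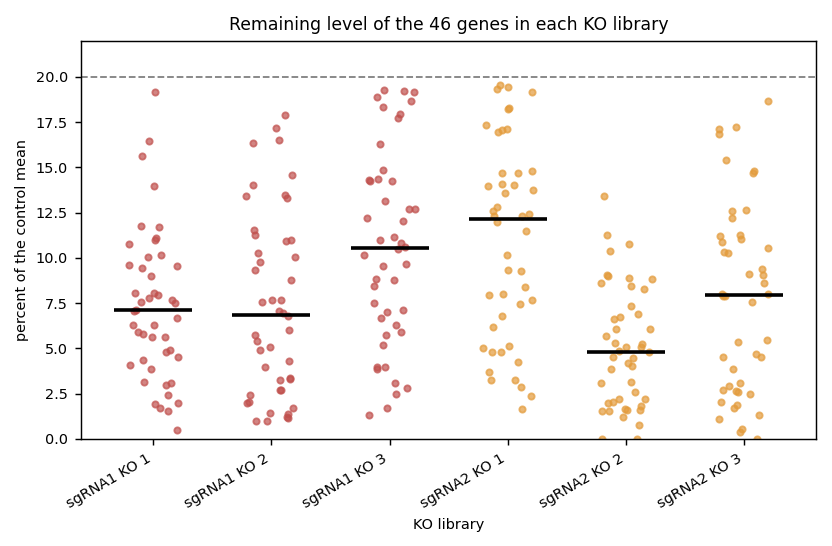
Percent of the control mean for each of the 46 genes (points) in each KO library, with the median as a black bar and the 20% limit of the rule dashed. The medians run from 4.81% in sgRNA2 KO replicate 2 to 12.1% in sgRNA2 KO replicate 1.

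The controls were not uniform for these genes either. Control replicate 1 was the lowest control for 34 of the 46 genes (73.9%), against 5480 of the 12245 genes with at least 50 in every control (44.8%). Its median level was 86.6% of the control mean for the set and 99.2% for all these genes. Akap12, with 12919 in control replicate 1 against 19910 and 18071 in the others, and Apln, with 3688 against 6042 and 5490, are examples among the genes with high counts. Flt1, Cxcl14 and Ssc5d were even across the controls. Per kilobase of exon the set had a median control level of 79.8 normalized read counts, from 4.72 to 2626, against 332 over 12222 such genes with a known length. The KO median per kilobase was 6.27. Without control replicate 2, the same thresholds left 40 of the 46 genes.

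The rule treats both guides alike, and the difference between sgRNA1 KO and sgRNA2 KO was tested. Every KO library had to be at most 20% of the control mean, so a gene kept with either guide could not enter the set. For the set, the test therefore cannot show whether both guides lost the same genes. It covers only differences in depth below that limit. No gene of the set differed between the guides by limma at adjusted p under 0.05, and 0 of all 15827 genes did (0.0%). At an unadjusted p under 0.05 there were 3 genes of the set and 474 genes in all (2.99%). The 3 were higher in sgRNA1 KO: Ociad2 by 2.11 on the log2 scale (SE 0.46, 95% interval 1.06 to 3.16, adjusted p = 0.778, limma), Cdsn by 1.85 (0.52 to 3.17) and Micall2 by 1.17 (0.29 to 2.04). The smallest p values among genes lower in sgRNA1 KO were those of Gap43 at -1.03 (-2.22 to 0.17), Emp3 at -0.91 (-2.07 to 0.25) and Klrb1c at -0.91 (-2.21 to 0.39). The intervals were wide, with a median SE of 0.52, so differences of up to several-fold could not be seen for most genes. Met (0.05, -0.54 to 0.64) and Cxcl14 (0.08, -0.39 to 0.56) were held to the narrowest ranges named here, and Adamts14 (-1.65, -4.18 to 0.89) to the widest. The count over all genes depended on sgRNA1 KO replicate 3: without it 173 genes differed between guides, with sgRNA1 KO replicate 1 or sgRNA2 KO replicate 1 left out 1 gene did, and with both colonies nearest to the controls left out 30 did. None of the 46 genes was called with any single library left out.

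**Figure D4:**
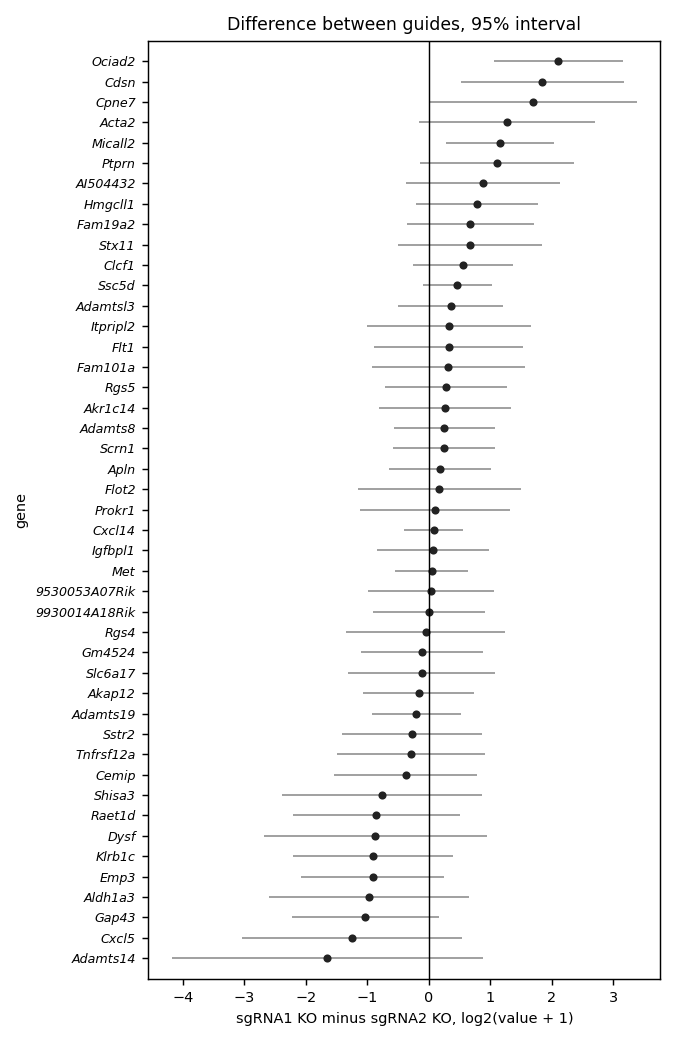
Difference between sgRNA1 KO and sgRNA2 KO on the log2(value + 1) scale for 45 of the 46 genes (points) with the 95% interval of each (lines), ordered by size. Only the intervals of Ociad2, Cdsn and Micall2 exclude 0 before adjustment, and over all 46 genes 29 lie above 0 and 17 below.

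Relatives of the lost genes that are outside the set were measured too. The rule was applied to every gene, and relatives that met it, such as Adamts8 and Rgs5, are in the set and not counted here. The counts therefore cannot show whether whole families were lost. Of 110 genes that share a symbol stem with a gene of the set, 86 were tested, and 18 fell (20.9%) and 16 rose (18.6%). These shares stand beside 20.2% lower and 19.1% higher over all genes. Of the 18 that fell, 11 were called with any library left out that still let them be tested, and of the 16 that rose, 7. The names below are from these stable calls unless said otherwise.

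In several families, small and large, some relatives also fell. Fam19a1 stood at 2, 3 and 4 with sgRNA1, at 8, 5 and 0 with sgRNA2, and at 33, 56 and 45 in control cells (log2 -3.54, SE 0.60, adjusted p = 0.00286, limma). Klrb1a fell by 3.04 on the log2 scale, though it fell under the filter on low values without control replicate 2. Itpripl1 had 333, 509 and 785 in sgRNA1 KO, 754, 531 and 500 in sgRNA2 KO, and 1333, 1822 and 1684 in the controls (log2 -1.55, SE 0.26, adjusted p = 0.00265, limma). No KO library of Itpripl1 went under 333 counts. Fam101b fell by 1.79, Raet1e by 2.49, Shisa6 by 2.67, Cpne2 by 1.45 and Adamts20 by 1.56. Raet1e overlaps Raet1d on the same strand, so their reads may be shared. Of the regulators of G protein signalling, Rgs8 fell by 2.47 and Rgs10 by 1.40.

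Other relatives did not fall or rose. Ociad1, the only relative of Ociad2, averaged 4759 in KO and 4831 in controls (log2 -0.03, adjusted p = 0.868, limma). Scrn2 (0.13), Scrn3 (-0.27) and Micall1 (0.15) were not called either, nor was Ptprn2 (0.13), the relative of Ptprn, though its value turned negative under some alternatives. Fam19a4 rose by 1.52 in the same family in which Fam19a1 and Fam19a2 were lost. Slc6a11, a transporter of the neurotransmitter GABA, rose by 1.62 while Slc6a17 was lost. Cxcl12 rose by 2.02, Adamts12 by 1.73 and Adamtsl5 by 1.72. The families thus held genes that moved both ways.

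**Figure D5:**
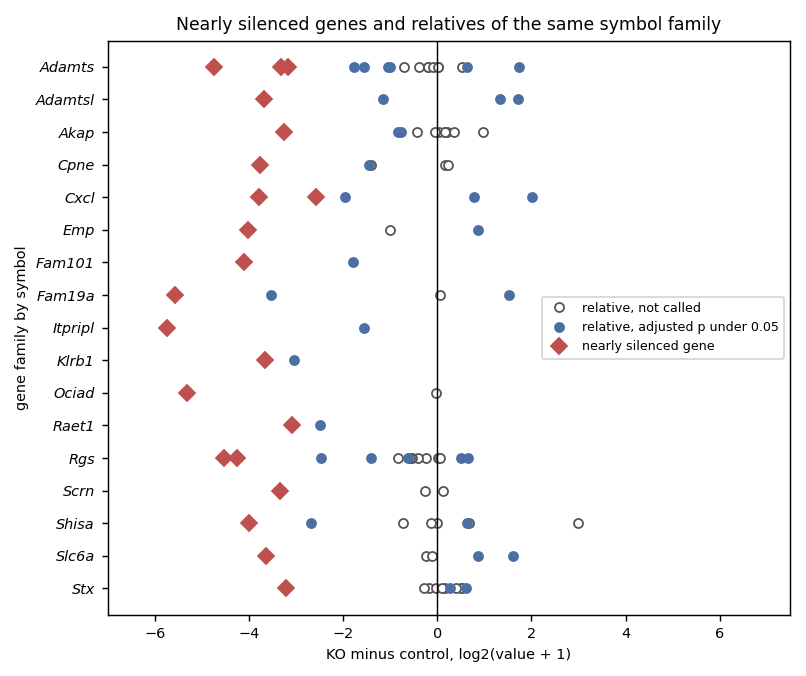
KO minus control on the log2(value + 1) scale for the nearly silenced genes (diamonds) and tested relatives (circles, filled where limma's adjusted p is under 0.05), for 17 symbol families. Relatives lie on both sides of 0 in the larger families, and the only relative of Ociad2 lies at -0.03.

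Ligands, receptors and other partners of the lost genes were taken from textbook pairs after values had been seen, so their counts are a description. Of 17 partners with values, 16 were tested, and 5 rose (31.2%) and 1 fell (6.25%), beside 19.1% and 20.2% over all genes. For Flt1, the ligands Pgf (505, 381 and 368 in sgRNA1 KO, 648, 379 and 421 in sgRNA2 KO, 212, 146 and 157 in controls; log2 1.37) and Vegfb (log2 0.77) rose, and Vegfa (0.42, adjusted p = 0.482, limma) did not pass. Kdr, another receptor of Vegfa, fell by 1.46 (adjusted p = 0.0421, limma). But with control replicate 1, 2 or 3 left out, its adjusted p by limma was 0.0889 to 0.131. This call was also lost without sgRNA1 KO replicate 1 or sgRNA2 KO replicate 2. For Clcf1, the receptor subunits Cntfr (0.34), Lifr (0.30) and Il6st (-0.27) were not called. Crabp2, a retinoic acid binding protein downstream of Aldh1a3, rose by 2.01 at low counts (11 to 26 in KO, 3 to 5 in controls), and the receptors Rara and Rarb were not called. Flot1 (0.44), the partner of Flot2, was not called. Stxbp2, which binds Stx11, rose by 1.39 (adjusted p = 0.0117), a call lost without control replicate 1 (0.0549). Aplnr, the apelin receptor, was at 0 to 6 in all 9 libraries and was not tested.

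The nearest tested genes on the chromosome that are outside the set were examined for each lost gene. Leaving out Ifi202b, and Cav1 next to Met, which met both thresholds and were dropped by name, 88 neighbours were tested, and 20 fell (22.7%) and 14 rose (15.9%). Over all genes the shares were 20.2% and 19.1%, but these include genes that met the rule, which the neighbour counts leave out. With Ifi202b and Cav1 kept, 22 of 90 neighbours fell (24.4%). The counts therefore cannot show whether runs of adjacent genes were lost. Without control replicate 1, 2 or 3, the 36 calls of all 90 neighbours became 17, 12 and 12, and without sgRNA2 KO replicate 2 they became 22. Lsamp next to Gap43 had 9077, 10659 and 5035 in the sgRNA1 KO colonies and 4558, 8543 and 7025 in the sgRNA2 KO colonies, against 2303, 1997 and 1884 in the controls (log2 1.80, SE 0.26, adjusted p = 0.00156, limma). Hcfc1r1, 218 bases from Tnfrsf12a, rose by 1.04, and Zfp579 near Ssc5d rose by 0.79. Of the neighbours outside the rule that fell, Fam84b (log2 -2.62), which overlaps 9930014A18Rik, had the smallest p. The 46 genes lay on 17 chromosomes, with 7 on chromosome 7, 6 on chromosome 5 and 5 each on chromosomes 6 and 10.

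Genes of the repression machinery were counted beside the 19.1% that rose and 20.2% that fell over all genes, and several of the shares are near these. Of 15 tested genes of DNA methylation and its removal, 4 rose and 3 fell, with a median of 0.16. Dnmt1, the maintenance methyltransferase, averaged 9094 in KO and 21164 in controls (log2 -1.40, adjusted p = 0.0238, limma), and without control replicate 1, 2 or 3 its adjusted p was 0.0649 to 0.0811. Of 18 Polycomb genes 4 rose and 6 fell, with a median of -0.24, and Eed and Ezh2, core subunits of the complex that methylates H3K27, fell by 0.97 each. Of 15 genes of H3K9 methylation and heterochromatin 2 rose and 7 fell, with a median of -0.34. The methyltransferases Suv39h2 and Setdb1 fell by 1.58 and 0.55, and the demethylases Kdm4b and Kdm4a rose by 1.05 and 0.63. The part of these genes in the loss of the 46 was not tested.

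Other lists were counted in the same way, beside 19.1% risen and 20.2% fallen over all genes. The lists were chosen with earlier results of these data known, so the counts are a description and differences from these shares are not read as results. Of 18 tested mesenchymal glioma genes other than Emp3, 0 rose and 9 fell, with a median of -1.12. Summed without Emp3, this list had 338797 in sgRNA2 KO replicate 3, within the controls (333583 to 416731). The other KO libraries had 116816 to 169878. Plaur, the urokinase receptor, averaged 1.0 in KO and 44.3 in controls (log2 -4.65), and Cd44, the hyaluronan receptor, 2108 and 5846 (log2 -1.51). Of 15 genes of Tgf-beta signalling 1 rose and 4 fell, with a median of -0.42. There Ltbp1, which holds latent Tgf-beta in the matrix, fell by 3.13 and Tgfb2 rose by 1.17. Of 17 Yap and Tead targets 2 rose and 4 fell, with a median of -0.18, and Arhgef17 fell by 2.03 and Ptpn14 by 0.92. Of 18 neural and glioma stem cell genes 3 rose and 4 fell, with a median of -0.12. Of 11 genes of dense-core vesicles other than Ptprn, 2 rose and 1 fell, with a median of 0.14, and Chgb rose by 1.76. Over all lists, the 72 calls became 41, 29 and 34 without control replicate 1, 2 or 3.

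Markers of other cell types were set beside the genes known from those cells. Acta2 and Rgs5 are pericyte markers and Flt1 is an endothelial marker. Summed without Acta2 and Rgs5, the fibroblast and pericyte list ran from 1527 to 5695 in KO and from 917 to 1183 in controls. Of its 6 tested genes 2 rose, Pdgfra and Des, and 0 fell, but with a control library left out the adjusted p of Pdgfra reached 0.0639 (without control replicate 2; 0.0597 without 3) and that of Des was 0.0692 to 0.148 (without control replicate 1, 2 or 3). Tagln averaged 70.8 in KO and 112 in controls, and Col1a1 ran from 17 to 31 in KO and from 27 to 42 in controls. Its defining genes Col3a1 and Pdgfrb were at 0 to 4 in all libraries. Tagln, Col1a1, Col3a1 and Pdgfrb thus made up a small part of the KO sums, and Pdgfra is also a marker of the oligodendrocyte lineage. The higher sums in KO are therefore not read as more pericyte or fibroblast RNA. Summed without Flt1, the endothelial list ran from 171 to 325 in KO and from 265 to 284 in controls. The defining genes Pecam1 (6 to 20 in KO, 5 to 13 in controls) and Tie1 (0 to 3 and 0 to 1) were near 0. Tek was not, with 18 to 123 in KO and 35 to 59 in controls. Of the 5 endothelial genes tested, 0 rose and only Kdr fell. For Klrb1c, the immune marker Ptprc was at 0 to 4 in all libraries. P2ry12 and Tmem119 averaged more in KO (29.8 and 10.7) than in controls (14.0 and 3.67), and Csf1r less (1.5 against 9.33). Of 2 tested microglia and macrophage genes 0 rose and 1 fell, Cd68 (log2 -0.72, adjusted p = 0.0233, limma). Without control replicate 1, 2 or 3 the adjusted p of Cd68 by limma was 0.0535 to 0.127. Over all genes 19.1% rose and 20.2% fell. Of 13 astrocyte genes 5 rose and 0 fell (median 0.37), of 9 oligodendrocyte lineage genes 4 rose and 0 fell (median 1.40), of 8 neuron genes 2 rose and 0 fell (median 0.59), and of 5 ependymal genes 1 rose and 3 fell (median -0.89). Glul and Slc1a2, astrocyte genes of glutamate handling, rose by 2.26 and 2.51, and Cspg4 and Cnp of the oligodendrocyte lineage by 1.40 and 1.62. The part of these shifts in the levels of the 46 genes was not tested.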

How the data were processed

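Poly(A) RNA of mouse brain tumor stem cells was measured in 9 libraries, grouped by the labels into sgRNA1 KO, sgRNA2 KO and control. The submitters' processing notes name build mm10, the aligner STAR (2.4.1d), the read counter featureCounts, and DESeq2. The deposited value is a score per gene and library: read counts that the authors scaled by library and rounded, as inferred from the values, so no count test was run. Library totals were 39781901 to 42975283.

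Values were transformed as log2(value + 1), which understates folds of low genes. For the 15827 genes that averaged 10 or more, limma 3.58.1 in R 4.3.3 gave two-sided tests that modelled the trend of variance with level, and p-values were adjusted by Benjamini-Hochberg over all of them with a threshold of 0.05. KO against control had 2 groups, and sgRNA1 KO against sgRNA2 KO came from a fit with 3 groups. The script was tested on simulated data. Positions came from GENCODE M21 and start regions from RefSeq GRCm38.p6.

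The members and the lists were chosen with earlier results of these data known, and the partner genes after their values were seen. Named in full were Gpd1, the given markers, the 10 members with the highest control mean, the 10 with the lowest KO share, the genes nearest each threshold, relatives by symbol, and up to 2 genes each way per list or 3 among neighbours, by smallest p. Others were named beside these by role, and 1 member, 1 relative and 1 partner are not reported here by name. Same-numbered libraries did not deviate together (r -0.35 to 0.33), so the numbers did not pair samples. Alternatives covered the thresholds, pseudocount, filter, scaling, replicate block, variance weights and each library left out.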

Additional observations from a re-analysis of the deposited data

Results flagged for a closer look

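For 3 of 47 genes examined over the 6 KO libraries, the highest library lay far from the others. The gap between the highest value and the next made up most of the whole range in each. Chance flags about 1 in 20 such groups. Ptprn was at 128 normalized read counts in sgRNA1 KO replicate 1 and at 14 to 43 in the other KO libraries. Rgs4 was at 50 in sgRNA2 KO replicate 1 and at 9 to 22 in the others. Flot2 was at 18 in sgRNA1 KO replicate 1 and at 2 to 7 in the others.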

How the results depend on the processing

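The size of the gene set followed its thresholds. A limit of 10% of the control mean left 9 genes, 30% took in 90, control minimums of 20 and 100 gave 65 and 36, and leaving out a library gave 40 to 54. With both KO libraries nearest to the controls left out, a choice made after seeing the data, it was 82. Quantile normalization gave 47, of which 43 were in the set, and median-of-ratios rescaling gave the same 46. With a library left out, genes that differed between the guides numbered 0 to 173 against 0 with all libraries (30 with both nearest libraries left out), and genes of the set 0 to 0. Genes called in KO against control numbered 2759 to 7609 (6227 with all libraries), those lower in KO 1288 to 3975 (3201), list genes 29 to 80 (72) and neighbours 12 to 44 (36). The low ends of the counts for KO against control came when a control library was left out, which leaves 2 controls. The other planned settings kept each of these counts within 1.5 times, and no called value changed sign. Some genes that were not called did, such as Ociad1, Scrn2 and Ptprn2. Replicate numbers did not pair the samples. With the replicate number as a block, 0 genes differed between guides and 5786 differed in KO against control, 2952 of them lower. For genes with few counts, such as Rgs5 or Klrb1a, the depth limits how exact a remaining share can be. With 3 colonies per guide, the median SE of the difference between guides was 0.52 on the log2 scale. Splicing, protein and methylation were not analysed here.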
